A study of Mus musculus with 24 samples.

Results

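The cytosolic ribosomal protein genes were followed in polyadenylated RNA from adult mouse hypothalamic neuronal cells grown in 2 glucose media, without or with mogroside V, the sweet glycoside of monk fruit. Members were taken by symbol: names that start with Rpl or Rps and a digit, plus Rplp0, Rplp1, Rplp2 and Rpsa, without S6 kinases, Rpl7-like genes and pseudogene symbols. Of 92 such symbols among 51948 named gene IDs, 83 had a mean of at least 5 CPM (gene counts scaled to a common library total) and were kept. They comprised 48 genes of the large subunit, 34 of the small subunit and Rps19bp1, whose product binds the protein of Rps19 and is no ribosomal subunit. The members also include Rps27rt, Rpl37rt and Rps3a3, 3 copies of other members. Just under the minimum lay Rpl29 at 4.78 and Rpl32l at 4.26 CPM, and just above it lay Rpl36al at 17.5, Rpl39l at 20.1 and Rpl22l1 at 20.2 CPM.

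Titles divide the samples into 8 groups of 3 libraries. Untreated cells are NGC in normal and HGC in high glucose, and cells given mogroside V are NG1, NG2 and NG3 or HG1, HG2 and HG3, the digit being a dose label. Doses of 15, 60 and 160 µM are named for the study, without a statement of which label is which, and the glucose levels, the exposure time and the name of the cell line are not given in the labels. Identical values had been deposited for HG2 replicate 3 and for HG3 replicate 2. Neither was used, which leaves 22 libraries, with n = 2 in HG2 and in HG3. Whether replicates are separate cultures is not stated, and the p-values therefore reflect only the spread among these libraries, which may be technical. No label names a batch, and medium and any batch that coincided with it cannot be told apart.

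A cytosolic ribosome joins a small subunit, which reads the mRNA, to a large subunit, which forms the peptide bond. Each holds ribosomal RNA and a set of proteins needed in equal numbers, apart from the acidic stalk proteins, which recruit translation factors. Most of their mRNAs begin with a C followed by a run of pyrimidines, the terminal oligopyrimidine (TOP) motif, through which mTORC1 and the RNA-binding protein LARP1 control translation and mRNA stability in response to nutrients. Growing cells give much of their transcription to these genes, and neurons also hold ribosomal protein mRNAs in their processes.

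The start sites of 6 members on which the comparison of the media turns are shown because the pyrimidine run at the start is what these genes are known for. Each stretch runs from 25 bases before the annotated start to 15 bases into the transcript, and capitals mark runs of at least 8 C or T. The sequences are from RefSeq, build GRCm38.p6, whereas the counts were made on GRCm39. Rps26 lies at chr10:128626492-128626531 (minus strand), Rps28 at chr17:33824548-33824587 (minus) and Rpl13 at chr8:123102325-123102364 (plus). Rps4x lies at chrX:102189377-102189416 (minus), Rpl39 at chrX:37085208-37085247 (minus) and Rpl4 at chr9:64173362-64173401 (plus).
Rps26: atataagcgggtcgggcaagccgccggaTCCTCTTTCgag
Rps28: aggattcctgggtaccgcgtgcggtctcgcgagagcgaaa
Rpl13: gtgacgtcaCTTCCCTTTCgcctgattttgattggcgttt
Rps4x: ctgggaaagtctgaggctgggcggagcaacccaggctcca
Rpl39: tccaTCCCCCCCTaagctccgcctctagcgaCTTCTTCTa
Rpl4: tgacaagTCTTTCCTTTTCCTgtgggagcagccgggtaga
The longest run was 14 bases in Rpl4, 10 in Rpl13, 9 in Rps26 and in Rpl39, 5 in Rps28 and 4 in Rps4x. In Rpl13 and Rpl4 the marked run lies before the annotated start, in Rps26 after it, and Rpl39 has a run on each side. A run in this window is thus not always at the start of the mRNA as annotated. Whether such runs go with the changes between the media, described further on, was not tested.

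RefSeq windows of 300 bases were found for 63 of the 83 members (74 windows). A run of at least 8 C or T on the gene's strand within 25 bases of the start was present in 45.9% of them, against 19.7% of all 32851 windows. The share was 53.5% in 43 large-subunit windows and 36.7% in 30 small-subunit windows. Counting both strands, CGGAAG, the core of sites for ETS-family factors, was present in 62.2% of member windows against 16.9% of all. AANATGGC, a core of YY1 sites, was present in 20.3% against 6.05%, and the GC box GGGCGG in 60.8% against 35.7%. The E-box CACGTG stood in 10.8% against 7.15%, and the TATA element TATAAA in 9.46% against 13.6%. These are matches of letters, and windows of the same gene can overlap.

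Gene counts ranged from 3396249 to 7773074 per library, and 16535 to 18935 genes were detected. NG3 replicate 3 had the fewest detected genes and the smallest share of reads outside genes (14.4%, against a highest share of 20.6%). Of 8 neuronal markers 5 averaged at least 1 CPM (Map2, Nefm, Nefl, Stmn2 and Tubb3), while Rbfox3, Syp and Snap25 were below it. The summed neuronal markers were 119 to 162 CPM in normal and 114 to 135 CPM in high glucose. The 6 fibroblast and pericyte markers summed to 3348 to 5524 CPM in normal and 4486 to 5639 CPM in high glucose. Of 5 microglia markers 3 averaged at least 1 CPM (127 to 216 CPM summed in normal and 157 to 200 CPM in high glucose), and Aqp4, an astrocyte marker, was at 0 in all libraries. Single markers were called between all high-glucose and all normal-glucose libraries by edgeR: Map2 of neurons fell (log2 -0.39 ± 0.08, adjusted p = 0.000853), while Csf1r of microglia (0.88 ± 0.22, adjusted p = 0.00533) and Col1a1 of fibroblasts (0.23 ± 0.06, adjusted p = 0.00666) rose. Between the controls, Pdgfrb of pericytes rose (0.40 ± 0.11, adjusted p = 0.0357). Over all doses, 2 of the 5 neuronal markers tested had positive and 3 negative log2 changes (-0.39 to 0.64, median -0.05). The 3 microglia markers tested lay between -0.06 and 0.88 (median 0.01). Of the 5 fibroblast and pericyte markers tested, 4 were positive and 1 negative (-0.05 to 0.40, median 0.19). In HGC against NGC all 5 fibroblast and pericyte markers tested were positive (0.12 to 1.03, median 0.21). All 3 microglia markers tested were positive there too (0.17 to 0.29, median 0.28). Of the 5 neuronal markers, 1 was positive and 4 were negative in that comparison (-0.11 to 0.89, median -0.10). The called markers thus moved with the medium, as did the ribosomal protein genes named for it, and over all doses each list held both signs. The part of other cell types in the results was not tested, and fewer cells of a type and less RNA per cell cannot be told apart.

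Summed over members, the share of a library's gene counts was 5.50 to 7.55%. Per kilobase of transcript (GENCODE M21, 1 well-annotated transcript of median length per gene), Rps14 had the highest level with 8576 CPM per kb, followed by Rps12 (6465), Rps21 (6144), Rps26 (4223) and Rps29 (4046). All 5 encode small-subunit proteins. The lowest levels were those of Rpl39l (24.9 CPM per kb), Rps10 (30.1), Rpl36al (33.2), Rpl22l1 (36.6), Rps3a1 (42.7) and Rps6 (50.7). The median was 708 CPM per kb in the large and 613 CPM per kb in the small subunit.

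Copies of these genes limit what a level means. Of the 83 members, 55 had at least 1 pseudogene symbol among the named IDs, and 49 shared over 50% of their 50-base windows with transcripts of other genes. Between 16.5 and 18.9% of the reads of a library aligned to several places and were not counted. Rps6, the substrate of the S6 kinases, shared 84.6% of its windows, Rpl17 shared 78.7%, and Rps3, a protein of the mRNA entry channel, shared 2.96%. Across the 83 members the Spearman correlation of shared windows with CPM per kb was -0.12. Levels of members with many copies are uncertain for this reason, and a difference between libraries in such a gene is one of uniquely aligned reads.

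Large and small subunit genes moved together from library to library. The level of each gene was set against its mean over the 22 libraries on the log2 scale, and the median over a subunit's genes was taken per library. In NGC these medians were -0.07, 0.12 and 0.02 for the large and -0.12, 0.12 and 0.08 for the small subunit (replicates 1, 2 and 3). In HGC they were -0.06, 0.06 and -0.10 for the large and -0.08, 0.06 and -0.07 for the small subunit. Thus the libraries of 1 control group differed among themselves by more than the controls of the media differed on average.

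HG1 had the highest and HG2 the lowest median of both subunits. In HG1 the medians were 0.16, 0.30 and 0.08 for the large and 0.14, 0.16 and 0.04 for the small subunit. In HG2 they were -0.18 and -0.14 for the large and -0.25 and -0.12 for the small subunit. Of the 83 members, 41 had their highest group mean in HG1 and 50 their lowest in HG2, and these counts were 27 and 28 of 48 large-subunit and 14 and 22 of 34 small-subunit genes. Single libraries carried much of this: 31 members were highest in HG1 replicate 2 and 16 in NG3 replicate 3, and 21 were lowest in HG2 replicate 1. Reads outside genes made up 15.7% in HG1 replicate 2, 14.4% in NG3 replicate 3 and 20.2% in HG2 replicate 1. The range over libraries was 14.4 to 20.6%. Other libraries departed from this order: NG1 replicate 3 had 20.6% with a median over the members of -0.01. HG1 replicate 1 had 19.2% with a median of 0.15. The part of this share in the member levels was not tested.

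**Figure D1:**
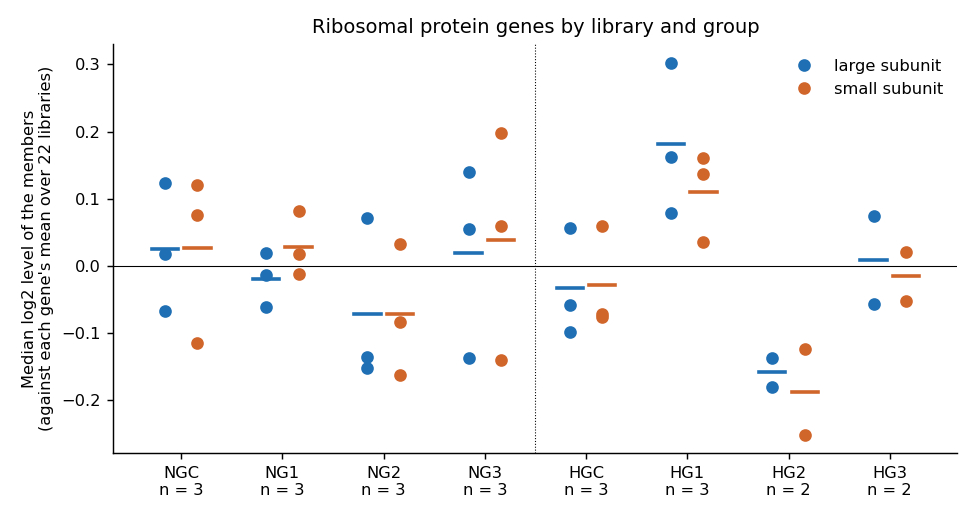
Median log2 level of the 48 large-subunit (blue) and 34 small-subunit (orange) genes per library, relative to each gene's mean over 22 libraries, by group; points are libraries and bars are group means. The HG1 libraries lie above 0 and the HG2 libraries below it for both subunits, and the points of the other groups straddle 0 in at least 1 subunit.

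The summed CPM of the 48 large-subunit genes was close to that of the 34 small-subunit genes in all groups. These sums are not corrected for transcript length and abundant genes such as Rps14 weigh most, so they do not measure balance per gene. The summed CPM of large-subunit genes divided by that of small-subunit genes was 0.946 ± 0.072 in NGC, 0.904 ± 0.026 in NG1, 0.919 ± 0.043 in NG2 and 0.939 ± 0.037 in NG3 (SD, n = 3 each). In high glucose it was 0.910 ± 0.019 in HGC, 0.978 ± 0.046 in HG1 (n = 3 each), 0.908 ± 0.0025 in HG2 and 0.922 ± 0.033 in HG3 (n = 2 each). HG1 (0.974, 1.03 and 0.934) did not overlap with HGC (0.930, 0.908 and 0.891), by a margin of the third decimal, and HG1 overlapped with NGC (0.993, 0.982 and 0.863). Over all doses the ratio was 0.927 ± 0.044 in 12 normal-glucose and 0.932 ± 0.041 in 10 high-glucose libraries, a difference smaller than the spread within either medium. The per-gene measure, the large-subunit median minus the small-subunit median of the log2 levels, was -0.02 ± 0.04 in normal and 0.03 ± 0.05 in high glucose, and both ranges overlapped (-0.06 to 0.05 and -0.03 to 0.14). That difference is about as large as the spread within a medium and was not tested.

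The first comparison asked which members differed between high and normal glucose over all dose levels (mean of the 4 levels, 10 against 12 libraries). Of the 83 members, 3 rose (Rps26, Rps28 and Rpl13), 2 fell (Rps4x and Rpl39) and 78 did not pass (edgeR quasi-likelihood test, Benjamini-Hochberg adjusted p under 0.05 over 13281 genes). Those 5 members are 6.02% of the set, whereas 10.1% of all genes tested were called (5.71% rose and 4.38% fell). The count of 5 was 2 (6.82 and 7.28% of all genes) without HG2 replicate 1 or HG3 replicate 3, 8 without NGC replicate 1 (10.2%), and 3 (8.61 to 9.29%) without NGC replicate 2 or 3, NG1 replicate 1 or 3, NG2 replicate 1 or HGC replicate 3. The median log2 change was -0.01 over the members and -0.01 over all genes tested. By subunit it was 0.01 in the large subunit (27 of 48 positive) and -0.04 in the small subunit (12 of 34 positive). Of all genes tested 47.1% were positive.

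Rps26 encodes a small-subunit protein at the mRNA exit channel, where it contacts the mRNA just upstream of the start codon. Its level was 2158 to 3142 CPM with a median of 2559 in normal glucose and 2603 to 3703 CPM with a median of 3255 in high glucose (scaled by TMM, the trimmed mean of M-values). The media overlapped, since 5 normal-glucose libraries lay above the lowest high-glucose one. Rps26 rose 1.23-fold (log2 0.30 ± 0.06 SE, edgeR adjusted p = 0.00116), and the log2 change was positive at all 4 levels: 0.20 in controls and 0.34, 0.25 and 0.39 at doses 1, 2 and 3. Rps28, another protein of the mRNA exit channel region, had 1142 to 1383 CPM with a median of 1238 in normal and 1356 to 1659 CPM with a median of 1449 in high glucose. Only NGC replicate 1 and NG3 replicate 3 among the normal-glucose libraries lay above the lowest high-glucose library. Rps28 rose 1.17-fold (log2 0.23 ± 0.05, adjusted p = 0.00243), with 0.16, 0.18, 0.26 and 0.32 at the 4 levels. Both genes stayed past the threshold in each of the 32 alternative fits run.

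Rpl13, a large-subunit protein, had a level of 460 to 890 CPM with a median of 590 in normal and 605 to 911 CPM with a median of 682 in high glucose. The highest normal-glucose library was NGC replicate 1, above all high-glucose libraries but HG3 replicate 3. Rpl13 rose 1.19-fold (log2 0.26 ± 0.07, edgeR adjusted p = 0.0172), and the log2 change was -0.15 between the controls and 0.24, 0.45 and 0.48 at doses 1 to 3. Without NGC replicate 1 the value between the controls was 0.03, and the interaction of treatment and medium for Rpl13 did not pass (adjusted p = 0.248). The call was lost without HG2 replicate 1 (adjusted p = 0.0736) and without HG3 replicate 3 (adjusted p = 0.0873).

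Rps4x, the X-linked form of a small-subunit protein, and Rpl39, a very small protein that lines the peptide exit tunnel, fell together. Rps4x had 374 to 620 CPM with a median of 483 in normal and 275 to 541 CPM with a median of 402 in high glucose. Within high glucose, HG1 replicates 1 and 2 were high, at 540 and 541 CPM, and the other 8 libraries lay between 275 and 428 CPM. Rpl39 had 500 to 690 CPM with a median of 613 in normal and 443 to 696 CPM with a median of 513 in high glucose. Here too HG1 replicates 1 and 2 stood high, at 634 and 696 CPM, above the range of the other 8 high-glucose libraries (443 to 527 CPM).

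Rps4x fell by 0.27 ± 0.08 on the log2 scale (edgeR adjusted p = 0.0437) and Rpl39 fell by 0.19 ± 0.06 (adjusted p = 0.0487). At the 4 levels the log2 changes were -0.28, 0.00, -0.43 and -0.36 for Rps4x and -0.26, 0.01, -0.26 and -0.26 for Rpl39, so that dose 1 showed none. Both calls were near the threshold: that of Rps4x was lost in 16 and that of Rpl39 in 20 of 32 alternative fits. Adjusted p reached 0.150 for Rps4x and 0.183 for Rpl39, both without HG2 replicate 1. Both calls were also lost without any 1 of NGC replicates 2 and 3, NG1 replicates 1 and 3, NG2 replicates 1 and 2, NG3 replicates 2 and 3, HGC replicates 1 and 3, HG1 replicate 3 and HG3 replicates 1 and 3. Rps4x shared 72.2% of its 50-base windows with other transcripts and Rpl39 16.5%.

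**Figure D2:**
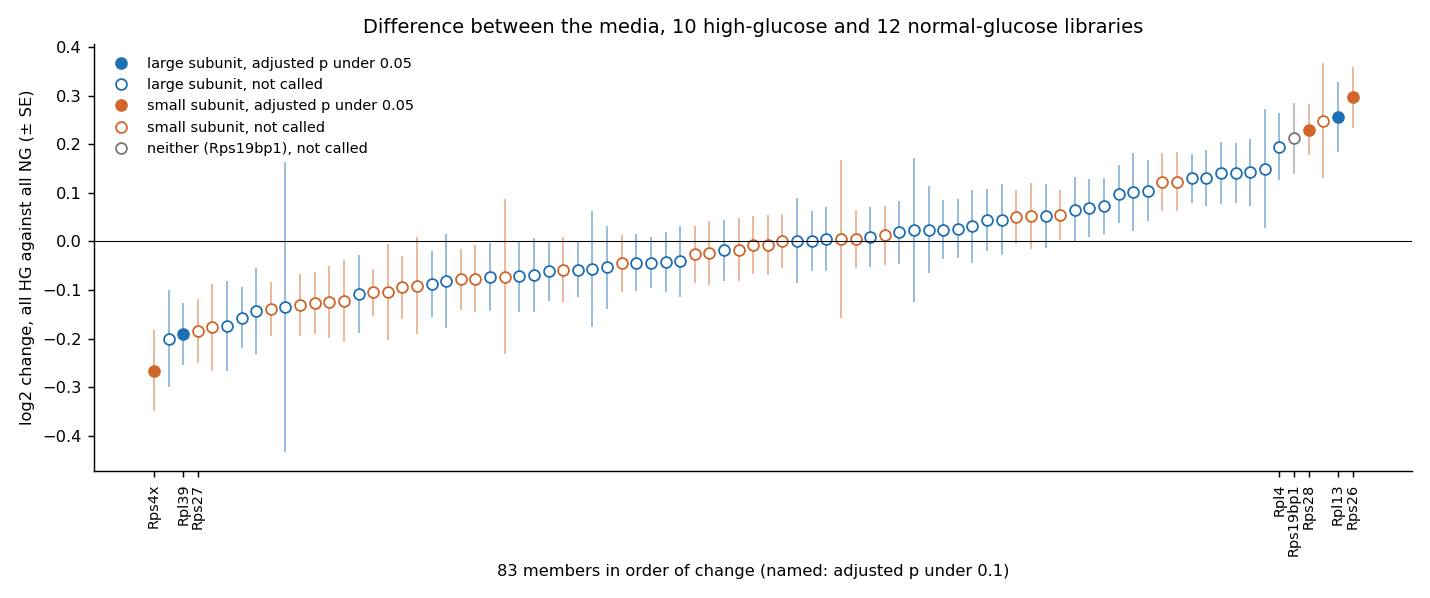
Log2 change of each of the 83 members between all high-glucose and all normal-glucose libraries, sorted, with the standard error; filled points passed adjusted p under 0.05. Changes run from -0.27 (Rps4x) to 0.30 (Rps26), and large-subunit (blue) and small-subunit (orange) genes are spread over the whole order.

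Just outside the threshold lay Rps19bp1 (log2 0.21 ± 0.07, edgeR adjusted p = 0.0582), Rps27 (-0.18 ± 0.07, adjusted p = 0.0645) and Rpl4 (0.20 ± 0.07, adjusted p = 0.0696). At an unadjusted p under 0.05 there were 19 members (12 positive and 7 negative), or 22.9%, against 22.7% of all genes tested. The 4 members with a positive change at all 4 levels were Rps26, Rps28, Rps21 and Rps19bp1. The 6 with a negative change at all 4 were Rpl22, Rpl30, Rps18, Rps20, Rps27 and Rps3. Apart from Rps19bp1, small-subunit genes made up 3 of these positive and 4 of these negative members. Rps21 changed by 0.04 to 0.06 at each level. The share of all genes with the same sign at all 4 levels was not taken, so these counts are descriptions only.

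**Figure D3:**
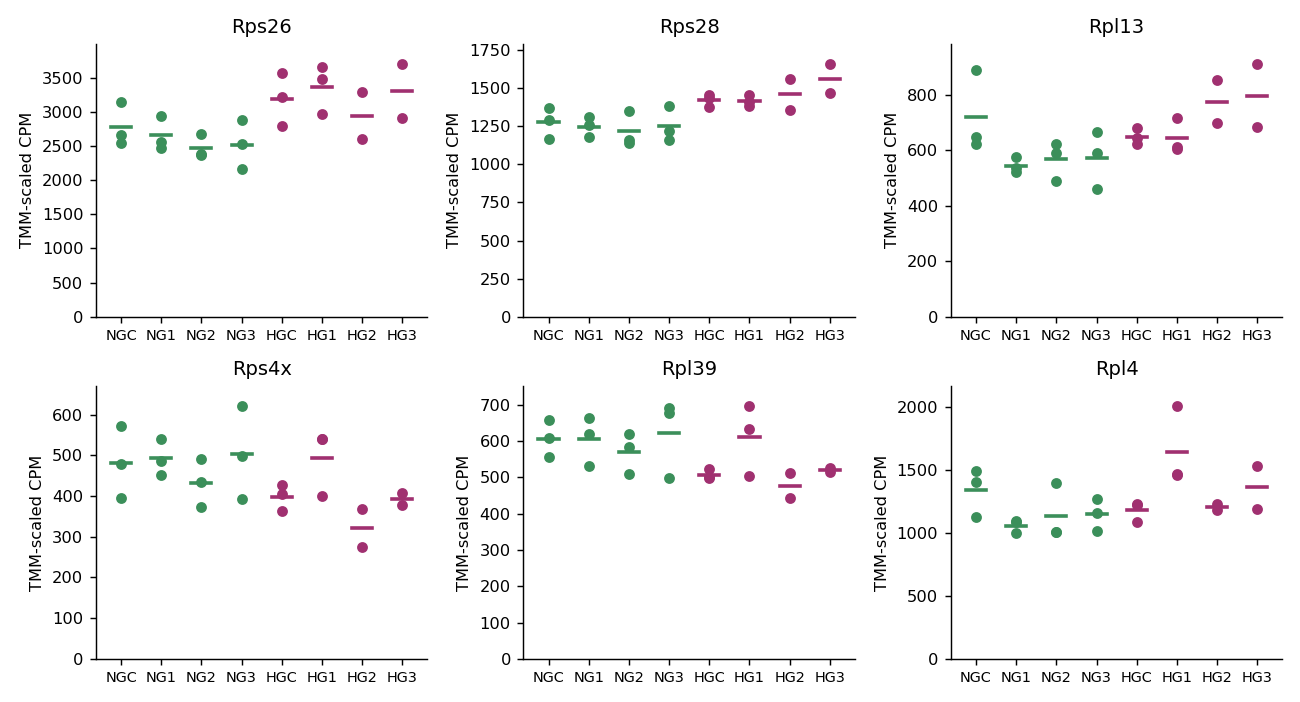
TMM-scaled CPM of 6 members in each library by group, normal glucose in green and high glucose in purple, with group means as bars; each vertical axis starts at 0. Rps26 and Rps28 have higher group means in high glucose at every dose label, Rpl13 has its highest means in HG2 and HG3, and Rps4x and Rpl39 are as high in HG1 as in normal glucose.

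The controls alone asked how the medium acted without mogroside V (HGC against NGC, n = 3 each). Of the 83 members, 0 were called by edgeR and 0 by DESeq2, while edgeR called 2.28% of all genes tested (1.89% rose and 0.392% fell). The members had 61 negative and 22 positive log2 changes, whereas 48.3% of all genes tested were positive. The members' median was -0.07, with -0.12 in the large and -0.04 in the small subunit, against -0.01 over all genes. Single libraries moved these medians: that over the members was -0.02 without NGC replicate 2 and -0.12 without NGC replicate 1 or HGC replicate 2, and the large-subunit median was -0.05 without NGC replicate 2 and -0.07 without HGC replicate 1. In the small subunit the median was positive without NGC replicate 2 (0.02) or NGC replicate 3 (0.01), and -0.14 and -0.09 without NGC replicate 1 and HGC replicate 2. Unadjusted p-values under 0.05 were found for 5 members, or 6.02%, all negative, against 11.9% of all genes (6.68% positive and 5.26% negative). They were Rps24 (log2 -0.32 ± 0.13, edgeR adjusted p = 0.259), Rps20 (-0.23 ± 0.10), Rpl35a (-0.42 ± 0.19), Rpl39 (-0.26 ± 0.12) and Rpl26 (-0.24 ± 0.11). Rps24, a small-subunit protein mutated in a form of Diamond-Blackfan anaemia, had 1427, 1170 and 1188 CPM in NGC and 1083, 920 and 1039 CPM in HGC. All 3 HGC libraries lay below all 3 NGC libraries, but the difference did not pass.

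Among treated libraries, 5 members rose and 0 fell in high against normal glucose (7 against 9 libraries), while 8.1% of all genes were called (4.69% rose and 3.41% fell). By edgeR these were Rpl13 (1.31-fold, log2 0.39 ± 0.08, adjusted p = 0.00231), Rps26 (1.26-fold, adjusted p = 0.00298) and Rps28 (1.19-fold, adjusted p = 0.00603). Rpl4, a large-subunit protein with a long extension into the exit tunnel, rose by 0.32 ± 0.08 on the log2 scale (1112 ± 137 CPM in normal and 1435 ± 288 CPM in high glucose, adjusted p = 0.0104). Rpl17, another protein that lines the exit tunnel, averaged 508 ± 56.5 CPM in normal and 628 ± 112 CPM in high glucose (a 1.20-fold rise, log2 0.26 ± 0.07, adjusted p = 0.0218).

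The last 2 genes rested on fewer libraries than the first 3. Rpl4 had 1464, 2001 and 1455 CPM in HG1, 1227 and 1178 in HG2 and 1191 and 1526 in HG3, against 1082, 1092 and 995 in NG1, 1007, 1391 and 1005 in NG2 and 1016, 1154 and 1264 in NG3. HG1 was thus highest, and HG2 lay within the normal-glucose range. Without HG3 replicate 3 the adjusted p of Rpl4 was 0.0717, and that of Rpl17 was 0.0885. Without HG2 replicate 1, HG1 replicate 2 or NG1 replicate 3, Rpl17 stood at adjusted p = 0.113, 0.0710 and 0.0594, and with the transcript length trend removed at 0.0809. The count of 5 was 3 without HG3 replicate 3 (5.07% of all genes), 11 without NG3 replicate 3 (9.65%), 9 without NG2 replicate 2 (7.77%) and 8 without NG3 replicate 1 (8.17%).

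Per dose label, positive log2 changes of high against normal glucose were found for 22 of the 83 members in controls, 66 at dose 1, 27 at dose 2 and 38 at dose 3, with medians of -0.07, 0.17, -0.10 and -0.02. Whether these values differ between dose labels was not tested, and the positive share of all genes was not taken at doses 1 to 3. In the large subunit the medians were -0.12, 0.24, -0.08 and -0.02, and in the small subunit -0.04, 0.06, -0.11 and -0.07. The interaction of treatment and medium asked whether treatment changed the members differently in the media. By edgeR and by DESeq2 0 members were called, with 0.00753% of all genes called by edgeR. The median interaction was 0.12 on the log2 scale, 0.14 in the large and 0.02 in the small subunit. Without NGC replicate 2 these medians were 0.04, 0.065 and -0.03, so the small-subunit median changed sign, and with any 1 library left out it lay between -0.03 and 0.10. The unadjusted p was under 0.05 for 11 members, or 13.3%, all positive, against 8.48% of all genes (4% positive). The lowest p-values were those of Rpl17 (0.49 ± 0.14, edgeR adjusted p = 0.227), Rpl13 (0.54 ± 0.16, 0.248), Rps24 (0.49 ± 0.15, 0.268) and Rpl4 (0.51 ± 0.15, 0.269). In each of these genes NGC replicate 1 was the highest normal-glucose library.

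The dose comparisons asked whether mogroside V shifted the members within a medium, and all comparisons of a medium share its control libraries. In HG1 against HGC 0 members were called by edgeR and 0 by DESeq2, as were 0% of all genes by edgeR. Yet 70 of 83 members had a positive log2 change, against 49.8% of all genes tested, with a median of 0.15 (0.20 in the large and 0.11 in the small subunit; -0.00 over all genes). At an unadjusted p under 0.05 there were 30 members, or 36.1%, against 7.78% of all genes. Of these 30, 29 were positive, a direction that 4.4% of all genes had at that threshold. Members share libraries and move together, so these counts are not independent of each other. The same holds for such counts in the other comparisons.

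Of the 30 members at an unadjusted p under 0.05 in HG1, 20 were of the large and 10 of the small subunit, which hold 48 and 34 of the 83 members. Rpl34, a large-subunit protein, had 237, 286 and 254 CPM in HGC and 358, 390.5 and 336 CPM in HG1 (log2 0.48 ± 0.12, edgeR adjusted p = 0.230). Rps27a, which encodes ubiquitin fused to a small-subunit protein, had 405, 494 and 416 CPM in HGC and 668, 810 and 541 CPM in HG1 (log2 0.62 ± 0.16, adjusted p = 0.285). Rps9, a small-subunit protein that helps keep decoding accurate, had 396, 394 and 398 CPM in HGC and 488, 603 and 457 CPM in HG1 (log2 0.38 ± 0.11, adjusted p = 0.357). In all 3 genes the libraries of the groups did not overlap, and HG1 replicate 2 was the highest.

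Rpl17 (0.48 ± 0.12), Rpl35 (0.54 ± 0.14), Rpl4 (0.48 ± 0.13), Rpl15 (0.49 ± 0.14), Rpl6 (0.40 ± 0.12) and Rpl32 (0.46 ± 0.14) followed with positive log2 changes. Rpl5, which with Rpl11 and 5S rRNA restrains Mdm2 when ribosome assembly fails, stood at 0.53 ± 0.14. The median over the members was 0.10 without HG1 replicate 2 and 0.22 without HGC replicate 2, and 0 members were called in either fit. With only the groups HGC and HG1 in the fit 3 members were called, Rpl34 and Rps27a among them (adjusted p = 0.0396 and 0.0483), and 0.121% of the 11526 genes tested in that fit.

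In HG2 against HGC the members lay on the other side. By edgeR and by DESeq2 0 of 83 were called (0% of all genes by edgeR). Of the members 63 had a negative and 20 a positive log2 change, whereas 49.3% of all genes tested were positive. The members' median was -0.12 (-0.09 in the large and -0.16 in the small subunit). Unadjusted, p was under 0.05 for 13 members (11 negative and 2 positive), or 15.7%, against 5.35% of all genes (2.95% negative and 2.39% positive). Rpl3, a large-subunit protein that reaches towards the peptidyl transferase centre, had the lowest p (log2 -0.42 ± 0.14, from 650 ± 78.9 CPM in HGC to 486 ± 30.0 CPM in HG2, edgeR adjusted p = 0.820). Rpl28 (-0.40 ± 0.15), Rpl10a (-0.48 ± 0.20) and Rplp2 (-0.31 ± 0.13) followed. In HG3 against HGC 0 were called by edgeR and by DESeq2 (0% of all genes by edgeR). The median was 0.05, with 54 of 83 changes positive, against 49.9% of all genes tested. By edgeR 3 members (3.61%) had an unadjusted p under 0.05, against 4.51% of all genes. Rpl10a was lowest in p there, at -0.51 ± 0.20.

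In normal glucose 0 members were called by edgeR at any dose. NG1 against NGC had a median of -0.03, with 6 members (7.23%), all negative, at an unadjusted p under 0.05, against 4.88% of all genes (2.58% positive and 2.3% negative), and edgeR called 0% of all genes. NG2 against NGC had 71 negative and 12 positive log2 changes and a median of -0.11, whereas 51.1% of all genes tested were positive. There 7 members (8.43%), all negative, were at that threshold, against 6.46% of all genes (3.3% positive and 3.16% negative). In that comparison edgeR called 0.00753% of all genes. DESeq2 called 0 members in both. Rps24 (-0.39 ± 0.13), Rpl13 (-0.40 ± 0.14), Rpl17 (-0.32 ± 0.12) and Rpl4 (-0.34 ± 0.13) had the lowest p in NG1, and Rpl11, Rpl26 and Rpl13 in NG2 (-0.30 ± 0.12, -0.29 ± 0.11 and -0.35 ± 0.14). In each of these genes NGC replicate 1 was the highest of the 12 normal-glucose libraries. It had 1427 CPM for Rps24, 890 for Rpl13, 663 for Rpl17, 1487 for Rpl4, 1261 for Rpl11 and 686 for Rpl26.

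In NG3 against NGC the stalk genes Rplp1 and Rplp0 had the lowest p-values among the members. Rplp0 is the base of the stalk and Rplp1 and Rplp2 are the acidic proteins that form its arms. Rplp1 had 1313, 1590 and 1233 CPM in NGC and 1814, 2520 and 2733 CPM in NG3 (log2 0.77 ± 0.17, edgeR adjusted p = 0.0705). Rplp0 had 1242, 1234 and 1205 CPM in NGC and 1462, 1585 and 1881 CPM in NG3 (log2 0.42 ± 0.11, adjusted p = 0.0813). The NG3 libraries lay above the NGC libraries in both genes, and neither gene passed, while edgeR called 0.128% of all genes in this comparison.

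Rplp2 stood at 0.26 ± 0.12 and Rpl15, a large-subunit protein, at 0.52 ± 0.14 (edgeR adjusted p = 0.106). At an unadjusted p under 0.05 there were 10 members, 5 positive and 5 negative, against 10.4% of all genes (4.31% positive and 6.05% negative). DESeq2 called 3 members: Rplp1 (adjusted p = 0.00205), Rplp0 (0.0173) and Rpl15 (0.0420), and it called 2.01% of the 5814 genes to which it gave an adjusted p. With edgeR 3 members were called without NG3 replicate 1 (0.8% of all genes) and 1 without NG3 replicate 2 (1.37% of all genes). Without NG3 replicate 3, the library with the fewest detected genes, 0 members and 0% of all genes were called. Without any 1 of the NGC libraries 0 members were called. With a library left out the log2 change lay between 0.65 and 0.92 for Rplp1 and between 0.31 and 0.49 for Rplp0. Between the controls of the media Rplp1 stood at 0.32 ± 0.17 and Rplp0 at 0.13 ± 0.11, and NG3 was not tested against NG1 or NG2.

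**Figure D4:**
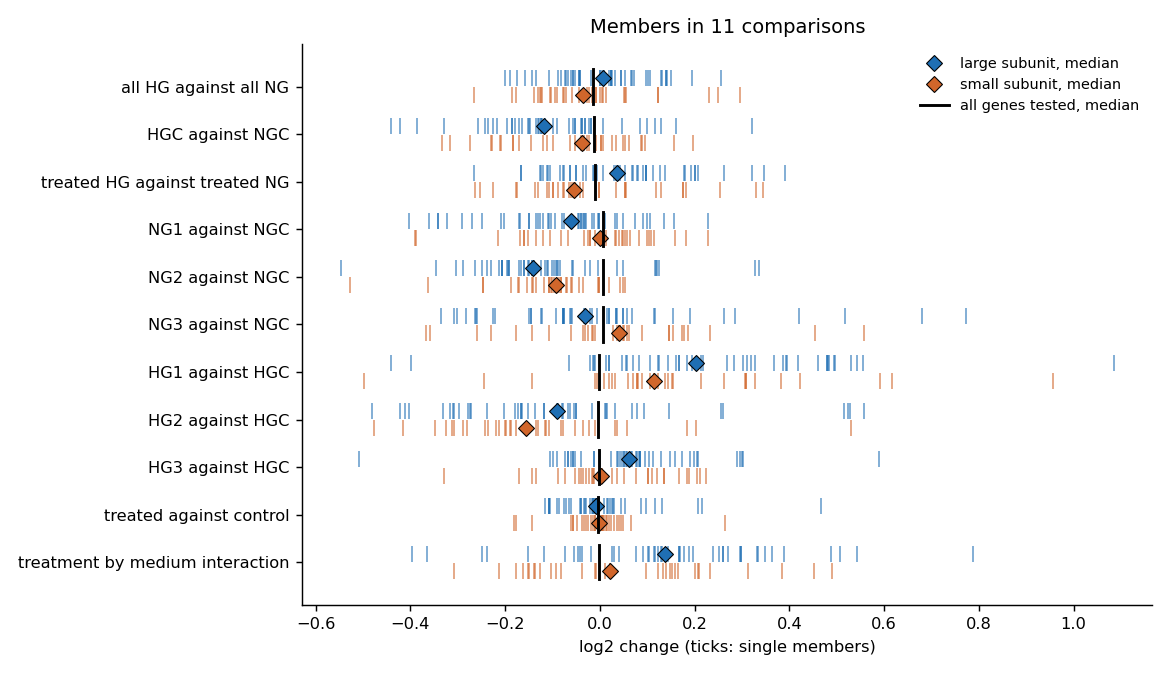
Log2 changes of the members in the 11 comparisons; each tick is a gene, diamonds are the medians of the large (blue) and small (orange) subunit, and black lines are the medians of all genes tested. The subunit medians are 0.20 and 0.11 in HG1 against HGC and -0.09 and -0.16 in HG2 against HGC, and in the other single-dose comparisons they lie between -0.14 and 0.06.

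Over both media and all doses, treatment against control (16 against 6 libraries) gave 0 called members by edgeR and by DESeq2, with 0% of all genes called by edgeR, and a median of -0.01. A single member, or 1 of 83, had an unadjusted p under 0.05, against 4.74% of all genes. It was Rpl15 (log2 0.21 ± 0.09, edgeR adjusted p = 0.994). Rpsa, the laminin receptor homologue of the small subunit, had 822 to 1128 CPM in normal and 809 to 1119 CPM in high glucose, with no call in any comparison. Rack1, a scaffold protein bound to the small subunit whose symbol the name rule does not take, had 1171 ± 65.3 and 1150 ± 63.0 CPM (log2 -0.02 ± 0.05 between the media).

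The members varied together from library to library. After subtraction of group means, the median correlation over pairs of members was 0.31, with 0.30 within the large subunit, 0.36 within the small subunit and 0.34 between them, over 22 libraries. It was 0.04 among mitochondrial ribosomal protein genes and 0.00 among 1424 abundant genes. All pairs share the same libraries and their scaling, and these values are descriptions. Of the within-group variation of the members, 38.4% lay on 1 component with the same sign in 65 of 83 members, led by Rpl41, Rps23, Rpl10a, Rpl37a and Rps4x. On the opposite side of it were Rps27rt, Rpl37rt, Rps10, Rpl36al and Rpl23a.

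The within-group SD on the log2 scale was largest for Rpl22l1 (0.71), Rps27rt (0.40), Rpl39l (0.40) and Rps6 (0.38). It was smallest for Rpl22 (0.10), Rpl8 (0.09) and Rps3 (0.05). The first 4 were among the least abundant members, with means of 20.3, 42.8, 20.1 and 44.7 CPM. The last 3 had means of 961, 1129 and 713 CPM. Counting noise weighs more at low counts, and its part in these SDs and ranges was not tested. Rpl22l1, the paralog of Rpl22, ranged from 3.66 CPM in HGC replicate 2 to 43.4 CPM in NG3 replicate 2, an 11.9-fold range, while Rpl22 had a 1.30-fold range. Rps6 ranged from 22.4 CPM in HGC replicate 2 to 94.3 CPM in HG1 replicate 2. Thus Rpl22l1 and Rps6 were lowest in the same library. Rps27rt ranged from 22.3 CPM in NG3 replicate 2, where Rps27 was highest (845 CPM), to 74.8 CPM in NGC replicate 1, where Rps27 had 504 CPM.

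Several pairs, chosen after their values were seen, kept to each other within groups. Pearson's r over 22 libraries was 0.92 for Rpl5 and Rps27a, 0.90 for Rpl37rt and Rps27rt, 0.89 for Rps4x and Rpl39, 0.81 for Rps6 and Rpl22l1 and 0.80 for Rplp0 and Rplp1. Spearman's rho was 0.86, 0.88, 0.87, 0.81 and 0.72 in the same order. Without the 2 libraries farthest from the median of 1 gene of each pair, r was 0.90, 0.83, 0.87, 0.79 and 0.77. Rps27rt and its relative Rps27 went opposite ways (r -0.65, rho -0.64, and r -0.45 without 2 libraries), and for Rpl37rt and Rpl37 r was -0.30. Rps27 shared 98.6% and Rps27rt 91.1% of their 50-base windows with other transcripts, so how reads divide between them is uncertain. Rps26 and Rps28, which rose together between the media, had an r of 0.32 within groups, and 0.15 without 2 libraries.

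**Figure D5:**
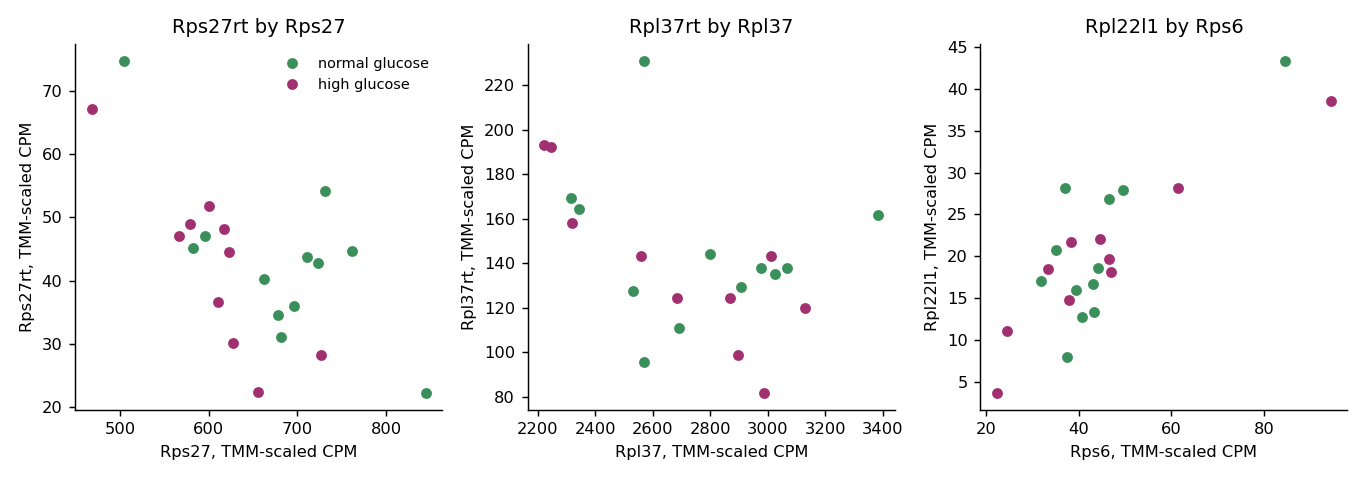
TMM-scaled CPM of Rps27rt against Rps27, Rpl37rt against Rpl37 and Rpl22l1 against Rps6 in 22 libraries, normal glucose in green and high glucose in purple; axes do not start at 0. Rps27rt runs from 22.3 to 74.8 CPM and is lowest where Rps27 is highest, and Rpl22l1 and Rps6 share their lowest library.

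Per kilobase the usual form exceeded its paralog or copy, with ratios of 62.6 for Rpl36a to Rpl36al, 37.4 for Rpl39 to Rpl39l and 12.8 for Rpl22 to Rpl22l1. The ratio was 16.4 for Rps27 to Rps27rt, 15.7 for Rpl37 to Rpl37rt and 2.88 for Rps27 to Rps27l. Rps3a1 was the exception, at 0.19 of Rps3a3. These ratios rest on uniquely aligned reads, so how reads divide between a gene and its relative is uncertain. How far this shifts a ratio was not tested. Rpl3l, a muscle form, and Rpl10l, a testis form, lay at 0.19 and 0.13 CPM and are no members.

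Genes around the ribosomal proteins were read from lists. Of 28 tested genes of mTORC1 and LARP1, 7 rose and 0 fell between all high-glucose and all normal-glucose libraries, with a median of 0.00 over the list, whereas 5.71% of all genes tested rose and 4.38% fell. By edgeR these included Rragc, a Rag GTPase (1.48-fold, log2 0.57 ± 0.07, adjusted p = 8.52e-08), Flcn, a GTPase activator for it (1.56-fold, log2 0.64 ± 0.10, adjusted p = 1.58e-05), Tsc1, an inhibitor of the pathway (log2 0.32 ± 0.08), and Lamtor1, which anchors the Rag GTPases at lysosomes (1.20-fold). Larp1 averaged 144 ± 27.3 CPM in normal and 170 ± 15.3 CPM in high glucose, a 1.20-fold rise (adjusted p = 0.0103), and between the controls its log2 change was -0.15 ± 0.13. Genes that activate and genes that restrain mTORC1 were thus both among those that rose. Between the controls 4 of the 28 rose, with Flcn at 1.12 ± 0.20, Lamtor1 at 0.64 ± 0.13, Lamtor4 at 0.65 ± 0.14 and Rragc at 0.57 ± 0.13, while 1.89% of all genes rose and 0 ribosomal protein genes were called.

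Over all doses, where 10.1% of all genes were called, other mRNAs with a TOP start had 1 of 22 genes called, Npm1, a nucleolar chaperone (log2 0.16 ± 0.05, edgeR adjusted p = 0.0394). Of 7 small nucleolar RNA host genes, Snhg12 fell by 0.30 ± 0.10 (adjusted p = 0.0406), and of 6 chaperones of ribosomal proteins 0 were called by edgeR, with 1 at an unadjusted p under 0.05. Of 77 mitochondrial ribosomal protein genes, Mrps18a and Mrpl17 rose (log2 0.34 ± 0.09 and 0.25 ± 0.07). In HG1 against HGC, where the cytosolic members had a median of 0.15, the TOP list stood at 0.14 (14 of 22 positive), the mitochondrial list at 0.13 (54 of 77 positive) and the mTORC1 list at -0.09 (10 of 28 positive), with 0 called by edgeR in each. At an unadjusted p under 0.05 there were 7 of 22, 15 of 77 and 3 of 28 genes of these lists, against 7.78% of all genes.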

How the data were processed

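The authors deposited whole-number read counts per gene, 1 file per library (24 files). Per the submitters' processing notes, the build was GRCm39, and DESeq2 3.16, STAR 2.7.5c, HTSeq 1.99.2 and FastQC 0.11.9 are named, without their roles. Per the labels' protocols, RNA was polyadenylated and treated with DNase. Whether counting used strand is not given in the sources read, so reads of antisense neighbours cannot be separated. Each file lists 56941 gene IDs and 5 summary lines, and only the former entered library totals. Symbols were matched to 51948 IDs.

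The counts were tested with edgeR 4.0.16 (limma 3.58.1) in R 4.3.3: TMM factors, default low-count filter over the 8 groups (13281 genes kept, 43660 removed), group means as design and robust quasi-likelihood F tests, in 11 comparisons. P-values were adjusted over all 13281 genes within a comparison, with a threshold of 0.05. Residual degrees of freedom were 14, with 0.149 as the common biological coefficient of variation. All 83 members were tested, so none was lost to the filter. At 3396249 to 7773074 gene counts per library the members' median standard error was 0.06 on the log2 scale for all high against all normal glucose, 0.12 for HGC against NGC and 0.14 for HG2 or HG3 against HGC.

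CPM in the text are TMM-scaled, except in the choice of members and per kilobase, which use raw CPM. Transcript lengths, GC content and shared 50-base windows are from GENCODE M21 and no coordinate of the counted build is given. Motifs were searched in RefSeq windows of 250 bases before to 50 after the start. The pipeline was tested on simulated counts in which genes were changed between the media only. Dose and interaction effects were not simulated, and the outcome is not given here.

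The members and lists were chosen with earlier results of these data known. Named were all members called over all dose levels, up to 10 with the lowest p in other comparisons, the 3 most and 3 least variable, fixed paralog pairs, the stalk genes, Rps6, Rack1 and Rpsa, and up to 4 genes of each other list; other names were added after the values were seen. Alternatives were DESeq2 1.42.0, RLE factors, no filter, TMM factors without the members, only the compared groups, the replicate number as a block, the identical file kept in HG2 or in HG3, each library left out in turn, and NG3 replicate 3 and HGC replicate 2 left out together. Removal of transcript length or GC trends was added after seeing the data. A result that the naming rule covers is not reported here.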

Additional observations from a re-analysis of the deposited data

How the results depend on the processing

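Rps26 and Rps28 stayed called over all dose levels in the 32 alternatives run, and with Rpl13 in the 27 of the treated libraries. Counts of called members were less stable. The count of 5 over all doses (10.1% of all genes) ranged from 2 to 8 with a library left out. It was 8 without a low-count filter (4.54% of all genes) and 8 with GC trends removed (10.8%). With the identical file in HG2 or HG3 it was 9 and 10 (11% of all genes in each). The count was 8 without NGC replicate 1 (10.2%) and 2 without HG2 replicate 1 (6.82%) or HG3 replicate 3 (7.28%). It was 3 (8.61 to 9.29%) without NGC replicate 2, NGC replicate 3, NG1 replicate 1, NG1 replicate 3, NG2 replicate 1 or HGC replicate 3. In the treated libraries (8.1% of all genes) the count ranged from 3 to 11 with a library left out. It was 9 without the filter (3.74%) and 10 with GC trends removed (8.32%). With the identical file in HG2 or HG3 it was 13 (9.41%) and 11 (9.38%). It was 13 without NG3 replicate 3 and HGC replicate 2 (10.3%). Without the filter the counts were 1 in HGC against NGC (1.12% of all genes) and 4 in NG3 against NGC (0.658%). They were 13 in HG1 against HGC (0.177%) and 3 for the interaction (0.148%). NG3 against NGC gave 3 with DESeq2 (2.01%) and 0 to 3 with a library left out (0 to 1.37%). HG1 against HGC gave 3 with only its groups in the fit (0.121%). The small-subunit median of the interaction was 0.13 without NG3 replicate 3 and HGC replicate 2, from 0.02. For Rpl13, HGC against NGC, the log2 change was -0.15 and lay between -0.244 (without NGC replicate 2) and 0.0305 (without NGC replicate 1, where it changed sign) with a library left out. The cause was not tested.

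No pairing of the libraries by replicate number was seen: 70 pairs with the same number had correlations of -0.12 to 0.18 with a median of 0.01. Of 22 libraries, 7 correlated best with their own number. Whether libraries were handled in numbered blocks is not stated in the labels. With the replicate block 6 members were called over all doses (10.3% of all genes) and 7 in the treated libraries (8.04%). In HG1 against HGC that fit called 0 members (0.0151% of all genes).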
